A study of Mus musculus with 18 samples.

Results

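The mevalonate enzymes that act before squalene were followed here in cultured mouse oligodendrocyte progenitors (OPCs), proliferating cells that give rise to the oligodendrocytes that myelinate axons in brain and spinal cord. The set holds 8 genes, Acat2, Hmgcs1, Mvk, Pmvk, Mvd, Idi1, Fdps and Ggps1, out of 54279 rows in each of 2 tables, and all 8 were found by name in both tables and passed the filter of a mean of at least 1 CPM (estimated counts scaled to a common library size). The genes were chosen as enzymes of one pathway with their response to the drug AZD8330 in Vhl and in control cells already known. The values that chose them are therefore the AZD8330 changes in both genotypes, which are given below as a description from which no test result is read.

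The OPCs were derived from epiblast stem cells and were cultured with the growth factors Fgf2 and Pdgfa in a defined medium, which all 6 groups shared. The groups were CRISPR-Vhl cells with AZD8330, CRISPR-Vhl cells with DMSO, CRISPR-Control cells with AZD8330, CRISPR-Control cells with DMSO, untreated CRISPR-Vhl cells and untreated CRISPR-Control cells, with 3 libraries (A, B and C) in each. The drug cells received 300 nM AZD8330, which blocks MEK1 and MEK2, kinases upstream of ERK, or its vehicle DMSO for 14 h. VHL is the subunit of a ubiquitin ligase that tags hypoxia-inducible factor alpha proteins for destruction. Whether the CRISPR-Vhl cells were 1 clone or a pool, their age and strain, and whether replicate libraries stem from separate cultures are not given in any source used here. The p-values therefore reflect only how much these libraries vary, which may be technical.

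Mevalonate enzymes turn acetyl-CoA into the isoprenoid units from which cells build cholesterol, dolichol, ubiquinone and the lipid anchors of small GTPases such as Ras and Rab proteins. The genes of the pathway are known targets of the transcription factor SREBP2, which is released from the endoplasmic reticulum when membrane sterol is low, and which acts together with NF-Y and Sp1 at many of these promoters. Oligodendrocytes are known for a high demand for cholesterol, a main lipid of myelin.

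Untreated libraries held 14594148 to 21160250 estimated counts, and those of the drug experiment 12391077 to 16349676. Vhl mRNA was 92.4 CPM in Vhl cells with DMSO against 106 CPM in control cells with DMSO, and 100.1 CPM in Vhl cells with AZD8330 against 138 CPM in control cells with AZD8330. An edit of a coding sequence need not lower the mRNA. Vegfa, a target of hypoxia-inducible factor, was 95.6 to 184 CPM in the Vhl libraries of the drug experiment and 5.28 to 7.75 CPM in the control libraries. Dusp6, a phosphatase gene switched on by MEK and ERK signalling, was 30.5 to 34.7 CPM in Vhl cells with AZD8330 against 366 to 396 CPM in Vhl cells with DMSO, and 20.5 to 21.3 CPM in control cells with AZD8330 against 406 to 425 CPM in control cells with DMSO. The 8 OPC markers summed to between 8013 and 12990 CPM in every library. Ptprz1 and Olig1 weighed most in this sum, with means of 3133 and 3143 CPM in control cells with DMSO, where Pdgfra had 35.1 CPM. Markers of microglia, endothelial, pluripotent and mesenchymal cells summed to at most 1.47, 3.57, 23.8 and 24.6 CPM. The larger sums of astrocyte, oligodendrocyte and neuron markers are given below. In the untreated experiment both A libraries stood apart. Sox10, a transcription factor of the oligodendrocyte lineage, was 327 CPM in Vhl A against 15.3 and 16.0 CPM in Vhl B and C, and 527 CPM in control A against 88.1 and 87.8 CPM in control B and C. Vegfa was 38.8 CPM in Vhl A, against 408 and 644 CPM in Vhl B and C. Counts of called enzymes and of called sterol, SREBP and isoprenoid genes in untreated cells are therefore given with and without both A libraries.

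The 8 enzymes differed widely in level. Divided by the merged exon length of each gene, Hmgcs1 had the highest level in every group, with 767 ± 37.3 CPM per kb in Vhl cells with AZD8330 and 501 ± 24.3 CPM per kb in control cells with DMSO (SD, n = 3 each). Idi1 and Mvd followed, at 116 ± 5.46 and 93.4 ± 3.74 CPM per kb in Vhl cells with AZD8330 and at 113 ± 4.73 and 77.5 ± 4.81 CPM per kb in control cells with DMSO (SD, n = 3 each). In the untreated groups Idi1 and Mvd lay within their spread, with 46.1 ± 11.2 and 41.1 ± 7.64 CPM per kb in Vhl cells and 63.1 ± 17 and 63.3 ± 14.1 CPM per kb in control cells. Pmvk was the lowest, at 3.34 ± 1.25 CPM per kb in Vhl cells with AZD8330 and 0.887 ± 0.47 CPM per kb in control cells with DMSO. Together the 8 genes took 0.326% to 0.352% of the counts in Vhl cells with AZD8330, 0.192% to 0.206% in Vhl cells with DMSO, 0.168% to 0.195% in control cells with AZD8330 and 0.222% to 0.235% in control cells with DMSO. Hmgcs1 alone made up 73.6% to 81.7% of that share in the drug experiment.

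The first question was how AZD8330 moved each enzyme in Vhl and in control cells. With the drug, Hmgcs1, Mvk, Pmvk, Mvd, Idi1 and Fdps had higher values in Vhl cells, by 0.46 to 1.45 on the log2 scale. Acat2, Hmgcs1, Mvd, Idi1 and Fdps had lower values with the drug in control cells, by 0.25 to 1.13. Ggps1, the enzyme of the non-sterol branch, had overlapping values in all 4 groups. Values are CPM for libraries A, B and C, in that order, and log2 changes carry their standard error (SE) from a fit across all genes.

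Acat2, the cytosolic thiolase that joins a pair of acetyl-CoA molecules, had 19.2, 21.4 and 18.7 CPM in Vhl cells with AZD8330, against 20.4, 18.5 and 18.0 CPM in Vhl cells with DMSO. In control cells it had 8.60, 9.72 and 8.98 CPM with AZD8330, against 16.8, 18.9 and 22.6 CPM with DMSO. All 3 control libraries with AZD8330 thus lay below the 9 other libraries, which overlapped one another, and the log2 change was 0.06 ± 0.12 in Vhl cells and −1.09 ± 0.12 in control cells. Acat2 shares 43.7% of the 31-base words of its transcripts with other genes, mainly Acat3, so its count is uncertain. Acat3 had 0.185, 8.92 and 5.94 CPM in Vhl cells with AZD8330, against 0, 1.30 and 0.0843 CPM in Vhl cells with DMSO, and 2.43, 3.48 and 3.42 CPM in control cells with AZD8330, against 1.01, 0.682 and 0 CPM in control cells with DMSO. Counts given to Acat3 were thus higher with the drug in control cells and in 2 of 3 Vhl libraries.

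Hmgcs1, the cytosolic synthase that adds the next acetyl unit to form HMG-CoA, had 2589, 2820 and 2601 CPM in Vhl cells with AZD8330, against 1541, 1517 and 1425 CPM in Vhl cells with DMSO. In control cells it had 1357, 1477 and 1573 CPM with AZD8330, against 1730, 1833 and 1665 CPM with DMSO. Every Vhl library with AZD8330 lay above all 9 others, while the drug libraries of control cells lay below their DMSO libraries. The log2 change was 0.84 ± 0.06 in Vhl cells and −0.25 ± 0.06 in control cells.

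The next steps phosphorylate mevalonate. Mvk, mevalonate kinase, had 34.2, 31.5 and 37.1 CPM in Vhl cells with AZD8330, against 22.2, 15.7 and 19.5 CPM in Vhl cells with DMSO. The control cells held 22.6, 27.3 and 28.9 CPM with AZD8330, against 23.3, 25.4 and 29.7 CPM with DMSO. The drug libraries were the highest and the DMSO libraries the lowest in Vhl cells, with both control groups overlapping between them. The log2 change was 0.84 ± 0.14 in Vhl cells and 0.00 ± 0.14 in control cells. Pmvk, phosphomevalonate kinase, was close to the filter, with 4.52, 8.18 and 4.44 CPM in Vhl cells with AZD8330, against 1.25, 2.39 and 2.59 CPM in Vhl cells with DMSO. In control cells it had 1.99, 2.61 and 0.944 CPM with AZD8330, against 2.04, 1.92 and 0.593 CPM with DMSO. Only the Vhl group with the drug stood clear of the rest, and the log2 change was 1.45 ± 0.48 in Vhl cells and 0.27 ± 0.50 in control cells.

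Mvd, the decarboxylase that makes the five-carbon unit isopentenyl diphosphate, had 159, 171 and 162 CPM in Vhl cells with AZD8330, against 115, 117 and 104 CPM in Vhl cells with DMSO. In control cells it had 68.7, 72.8 and 82.7 CPM with AZD8330, against 128, 145 and 135 CPM with DMSO. The 4 groups did not overlap, and they ran from Vhl cells with AZD8330 through control cells with DMSO and Vhl cells with DMSO to control cells with AZD8330. The log2 change was 0.55 ± 0.07 in Vhl cells and −0.87 ± 0.07 in control cells. Idi1, the isomerase that turns isopentenyl diphosphate into its allylic form, had 349, 368 and 335 CPM in Vhl cells with AZD8330, against 260, 259 and 247 CPM in Vhl cells with DMSO. The control cells held 141, 160 and 167 CPM of it with AZD8330, against 354, 344 and 325 CPM with DMSO. Vhl cells with the drug and control cells without it overlapped at the top, and the control cells with the drug lay below all other libraries. The log2 change was 0.46 ± 0.06 in Vhl cells and −1.13 ± 0.06 in control cells.

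The 2 prenyl diphosphate synthases differed from each other. Fdps, which joins the units into farnesyl diphosphate, the branch point to sterols, had 43.0, 43.0 and 43.8 CPM in Vhl cells with AZD8330, against 26.6, 31.8 and 31.6 CPM in Vhl cells with DMSO. In control cells it had 20.6, 23.4 and 31.8 CPM with AZD8330, against 36.1, 31.6 and 38.9 CPM with DMSO. The Vhl libraries with the drug were the 3 highest, and the control groups met at 1 library each. The log2 change was 0.53 ± 0.13 in Vhl cells and −0.49 ± 0.14 in control cells. Ggps1, which extends farnesyl to geranylgeranyl diphosphate for protein prenylation and does not lead to sterol, had 47.1, 45.3 and 44.2 CPM in Vhl cells with AZD8330, against 46.4, 44.6 and 50.1 CPM in Vhl cells with DMSO. Control cells held 41.8, 46.9 and 45.5 CPM of Ggps1 with AZD8330, against 51.2, 41.2 and 45.4 CPM with DMSO. The 4 groups overlapped, with log2 changes of −0.05 ± 0.08 in Vhl cells and −0.04 ± 0.08 in control cells.

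**Figure D1:**
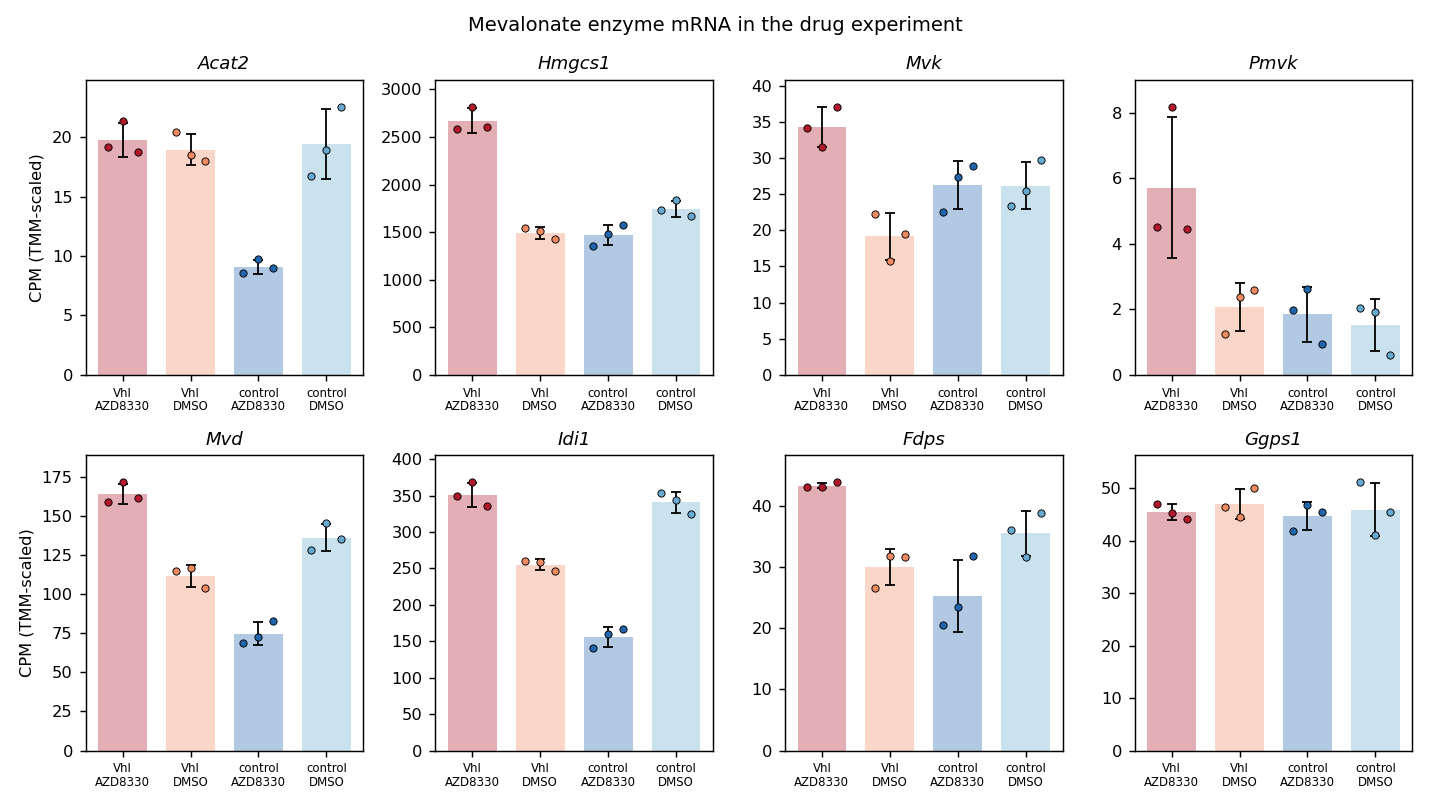
mRNA of the 8 mevalonate enzymes in the 4 groups of the drug experiment, 1 panel per gene, in CPM. Bars are means of 3 libraries, error bars are SD and points are libraries; for Hmgcs1, Mvk, Pmvk, Mvd and Fdps all 3 Vhl libraries with AZD8330 lie above every other library, for Acat2, Mvd and Idi1 all 3 control libraries with AZD8330 lie below every other library, and Ggps1 lies at 41.2 to 51.2 CPM throughout.

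With adjusted p under 0.05 as the threshold (edgeR's quasi-likelihood test, Benjamini-Hochberg over all genes), 6 of 8 members were past it as higher and 0 as lower in Vhl cells with AZD8330, beside 25.8% and 25.6% of all 13460 tested genes. In control cells 0 of 8 were past it as higher and 5 as lower, beside 29.1% and 31.7% of all tested genes. Because the members were chosen from these contrasts, nothing is read from these counts. Pmvk was not past the threshold in Vhl cells without Vhl AZD8330 B or Vhl DMSO A. The median log2 change of the members was 0.54 in Vhl cells and −0.37 in control cells, against medians of 0.03 and −0.01 over all tested genes. The AZD8330 change in Vhl cells minus that in control cells was 1.59 ± 0.08 for Idi1, 1.42 ± 0.10 for Mvd, 1.18 ± 0.69 for Pmvk, 1.15 ± 0.17 for Acat2, 1.08 ± 0.08 for Hmgcs1, 1.02 ± 0.19 for Fdps, 0.84 ± 0.19 for Mvk and −0.01 ± 0.11 for Ggps1 (log2 ± SE). In bulk RNA, fewer cells of a type and less RNA per cell cannot be told apart. Markers of other neural cells moved with the drug in both genotypes. The 7 astrocyte markers summed to 1428 to 1457 CPM in Vhl cells with AZD8330 against 783 to 825 CPM in Vhl cells with DMSO, and to 1852 to 1923 CPM in control cells with AZD8330 against 731 to 801 CPM in control cells with DMSO. The 7 oligodendrocyte markers summed to 372 to 403 CPM in Vhl cells with AZD8330 against 164 to 180 CPM in Vhl cells with DMSO, and to 441 to 475 CPM in control cells with AZD8330 against 143 to 148 CPM in control cells with DMSO. The 7 neuron markers summed to 2508 to 2538 CPM in Vhl cells with AZD8330 against 1475 to 1612 CPM in Vhl cells with DMSO, and to 2116 to 2127 CPM in control cells with AZD8330 against 1007 to 1059 CPM in control cells with DMSO. Single genes weighed heavily in these sums. In Vhl cells with AZD8330, Cnp made up most of the oligodendrocyte sum, with a mean of 363 CPM. Map2 made up most of the neuron sum there, with a mean of 1941 CPM. The oligodendrocyte marker Mog was at 0 in every library of the drug experiment but 1 of Vhl cells with DMSO. The neuron marker Syt1 was at 0 in every library with DMSO. The part of these markers in the enzyme values was not tested.

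**Figure D2:**
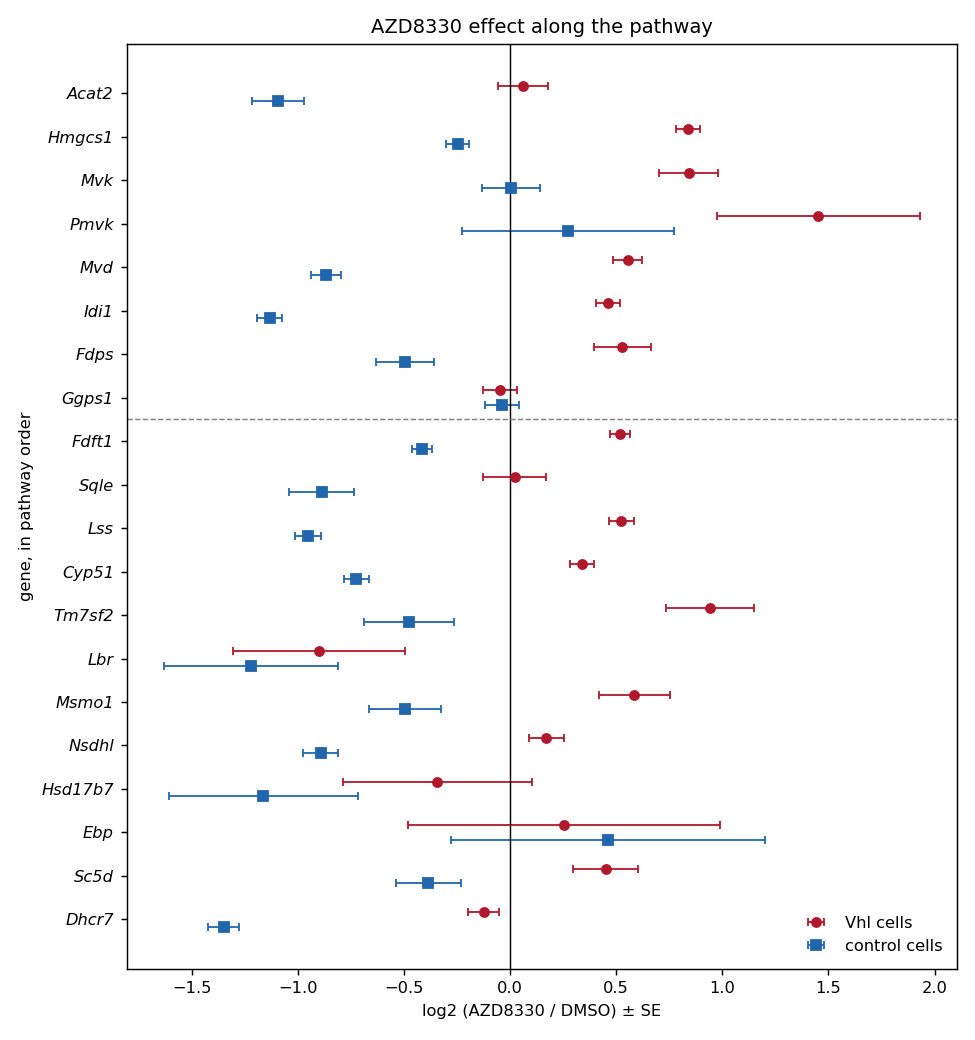
Log2 change with AZD8330 relative to DMSO in Vhl cells (red circles) and control cells (blue squares) for the 8 enzymes before squalene, above the dashed line, and 12 genes of the later sterol steps, below it, with SE. The red points of Hmgcs1, Mvk, Pmvk, Mvd, Idi1 and Fdps lie between 0.46 and 1.45, the blue points of Acat2, Mvd and Idi1 between −1.13 and −0.87, and both points of Ggps1 near 0.

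The second question was how Vhl cells differed from control cells without the drug. In DMSO, 4 of the 8 enzymes fell in Vhl cells and 0 rose, against 18.5% and 13.8% of all tested genes. Idi1 fell to 255 ± 7.32 CPM in Vhl cells, against 341 ± 14.3 CPM in control cells (SD, n = 3 each), a log2 change of −0.42 ± 0.06 (edgeR adjusted p = 1.14e-04). Mvd fell to 112 ± 7.12 CPM in Vhl cells, against 136 ± 8.45 CPM in control cells, a log2 change of −0.28 ± 0.07 (edgeR adjusted p = 0.00722). Hmgcs1 fell to 1494 ± 61.2 CPM in Vhl cells, against 1743 ± 84.5 CPM in control cells, a log2 change of −0.22 ± 0.06 (edgeR adjusted p = 0.00822). Mvk fell to 19.1 ± 3.26 CPM in Vhl cells, against 26.2 ± 3.25 CPM in control cells, a log2 change of −0.45 ± 0.14 (edgeR adjusted p = 0.0243). In each of these 4 genes all Vhl libraries lay below all control libraries. The share of all tested genes that lay apart in this way was not counted, here or in the other comparisons. Fdps had a log2 change of −0.24 ± 0.14 (edgeR adjusted p = 0.202), and Acat2, Pmvk and Ggps1 had −0.03 ± 0.12, 0.45 ± 0.50 and 0.03 ± 0.08, with edgeR adjusted p of 0.868, 0.546 and 0.802.

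These DMSO libraries also enter the drug contrasts by which the genes were chosen, so the 2 sets of values are not independent. Choosing genes by those contrasts can favour low Vhl values and high control values in DMSO. The counts and adjusted p in DMSO do not allow for that choice. The median change of the members was −0.23 on the log2 scale, against −0.03 over all tested genes. Scaling by total counts moved the split over all genes to 17.4% higher and 13.3% lower and left 3 of the 8 members called, with Mvk at an edgeR adjusted p of 0.0539. The Mvk call was also lost when the 2 DMSO groups were fitted alone (edgeR adjusted p = 0.0672) and without Vhl DMSO B (0.0968), Vhl DMSO C (0.0516), Vhl AZD8330 A (0.0506) or control DMSO C (0.095).

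In the untreated experiment, which shares no library with the drug experiment, 0 of the 8 enzymes were called by edgeR in Vhl cells relative to control cells, beside 0.0147% of 13569 tested genes called higher and 0% called lower. At an unadjusted p under 0.05 there were 2 members, Hmgcs1 and Mvd, and 1267 genes in all. DESeq2 and limma also called 0 members, beside 1.82% and 0.0295% of all tested genes called higher and 0.804% and 0% lower. Hmgcs1 had 1401, 1746 and 1554 CPM in Vhl cells, against 2042, 2992 and 2877 CPM in control cells. It was the only member whose groups did not overlap, with a log2 change of −0.75 ± 0.23 (edgeR adjusted p = 0.392). Mvd had 85.9, 71.3 and 59.1 CPM in Vhl cells, against 83.6, 132 and 118 CPM in control cells, a log2 change of −0.62 ± 0.23 (edgeR adjusted p = 0.478). Its Vhl A library was just above its control A library, and the B and C libraries were apart.

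Idi1 had 179, 118 and 122 CPM in untreated Vhl cells, against 132, 227 and 214 CPM in untreated control cells, and a log2 change of −0.45 ± 0.27 (edgeR adjusted p = 0.677). Fdps had 23.8, 10.8 and 10.4 CPM in Vhl cells, against 18.5, 25.5 and 26.6 CPM in control cells, and −0.65 ± 0.37 (edgeR adjusted p = 0.660). In both genes the A libraries were ordered opposite to the B and C libraries. Acat2 had 21.6, 18.4 and 30.3 CPM in Vhl cells, against 10.5, 25.7 and 37.1 CPM in control cells, with control A as the lowest. Mvk had 17.7, 17.0 and 12.3 CPM in Vhl cells, against 12.3, 17.1 and 24.0 CPM in control cells, and Pmvk 2.27, 3.14 and 7.01 CPM in Vhl cells, against 3.19, 3.15 and 4.71 CPM in control cells. Ggps1 had 47.9, 44.2 and 49.1 CPM in Vhl cells, against 42.7, 56.8 and 55.6 CPM in control cells. For these 4 genes the log2 changes lay between −0.18 and 0.17, and the groups overlapped. The median log2 change of the members was −0.32, against 0.05 over all tested genes.

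Without both A libraries 4 members fell in untreated Vhl cells and 0 rose, beside 1.56% and 2.91% of all tested genes. These were Idi1 (log2 change −0.88, edgeR adjusted p = 0.0291), Fdps (−1.30, 0.0329), Hmgcs1 (−0.83, 0.0458) and Mvd (−0.94, 0.0474). Each group then held 2 libraries. Leaving out any 1 library left 0 members called. Over all genes, however, 308 were called higher and 131 lower without Vhl A, against 2 and 0 with all libraries.

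Sums of oligodendrocyte, astrocyte and neuron markers overlapped between the untreated groups, which does not show that single markers were alike. Of these markers edgeR called 0, beside 0.0147% of 13569 tested genes called higher and 0% lower. At an unadjusted p under 0.05 were 1, 2 and 1 of them, beside 1267 of all tested genes. Log2 changes were negative for all 6 tested oligodendrocyte markers, 5 of 7 astrocyte markers and 2 of 6 tested neuron markers. The astrocyte markers Aqp4 and Gja1 were lower in all Vhl than in all control libraries. Their means were 15.9 and 183 CPM in Vhl cells, against 46.4 and 437 CPM in control cells. With all libraries, the oligodendrocyte markers summed to 363 to 639 CPM in Vhl cells and 516 to 1011 CPM in control cells. The astrocyte markers summed to 823 to 1445 CPM in Vhl cells and 1148 to 1898 CPM in control cells, and the neuron markers to 1893 to 4207 CPM in Vhl cells and 2574 to 3237 CPM in control cells. In DMSO the neuron markers summed to more in Vhl cells, as given above, and 3 of 6 tested rose and 0 fell. Of the 7 astrocyte markers 1 rose and 3 fell in DMSO, and of the 8 OPC markers 6 rose and 1 fell. Over all tested genes 13.8% rose and 18.5% fell in that comparison. The part of these markers in the enzyme values was not tested.

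**Figure D3:**
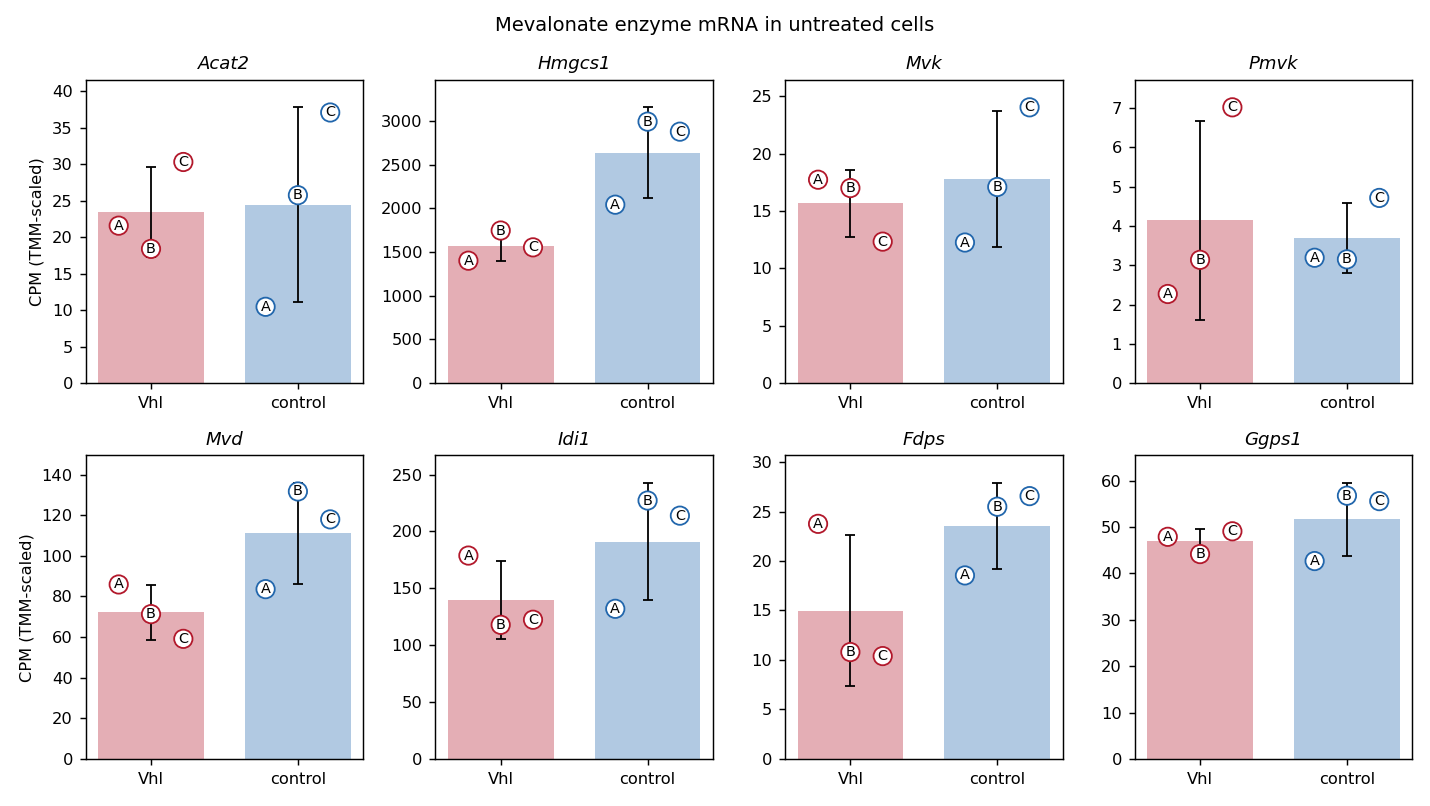
mRNA of the 8 enzymes in untreated Vhl and control cells, in CPM, with bars as means of 3 libraries, error bars as SD and circled letters as libraries. In Mvd, Idi1 and Fdps the Vhl A library lies above the control A library while Vhl B and C lie below control B and C; Hmgcs1 is lower in all Vhl libraries.

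The third comparison set Vhl cells against control cells when both received AZD8330. These libraries are the ones whose drug response chose the genes, so the values are a description. Of the 8 members 7 were past the threshold as higher in Vhl cells and 0 as lower, beside 16.0% and 14.0% of all tested genes. Pmvk was 1.63 ± 0.48, Idi1 1.17 ± 0.06, Mvd 1.14 ± 0.07, Acat2 1.12 ± 0.12, Hmgcs1 0.86 ± 0.06, Fdps 0.78 ± 0.14 and Mvk 0.38 ± 0.13 higher in Vhl cells on the log2 scale (± SE). Ggps1 differed by 0.03 ± 0.08. Idi1 averaged 351 ± 16.5 CPM in Vhl cells with AZD8330 and 156 ± 13.5 CPM in control cells with AZD8330, a ratio of 2.26, whereas in DMSO the ratio was 0.748. The same pair of ratios was 2.20 with AZD8330 and 0.821 with DMSO for Mvd, and 1.82 with AZD8330 and 0.857 with DMSO for Hmgcs1. The median of the members was 0.99, against 0.01 over all tested genes. Mvk was past the threshold in 9 of 19 alternative fits and Pmvk in 16 of 19. The other 5 genes were past it in all 19. The genes were chosen from these libraries, so nothing is read from these counts. Mvk missed it without any 1 of the 6 libraries with AZD8330, without control DMSO B or Vhl DMSO C, with total-count scaling and with DESeq2, and Pmvk missed it without Vhl AZD8330 B or control AZD8330 A or C.

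**Figure D4:**
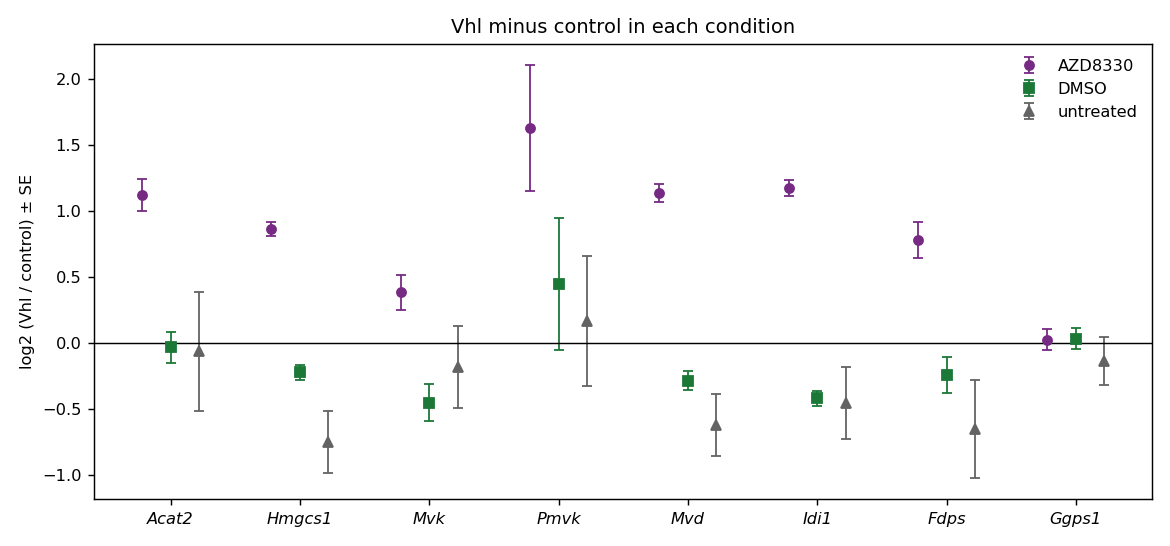
Log2 change in Vhl cells relative to control cells with AZD8330 (purple circles), with DMSO (green squares) and untreated (grey triangles) for each enzyme, with SE. Hmgcs1, Mvk, Mvd, Idi1 and Fdps lie above 0 with AZD8330 and below 0 in the other conditions, whereas Ggps1 lies within 0.14 of 0 in all of them.

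Promoter letters are shown for genes picked by their values with the drug, as a description. Hmgcs1 and Mvd were higher with the drug in Vhl cells and lower in control cells. The log2 changes (± SE) of Acat2 were 0.06 ± 0.12 in Vhl cells and −1.09 ± 0.12 in control cells. Those of Mvk were 0.84 ± 0.14 in Vhl cells and 0.00 ± 0.14 in control cells. In the same order, Ggps1 had −0.05 ± 0.08 and −0.04 ± 0.08. RefSeq tables of GRCm38.p6 held a promoter for 7 of the 8 genes, not Fdps. In the 250 bases before each start, both strands were searched for CACNCCAC (a core of SREBP sites), CCAAT (NF-Y) and GGGCGG (Sp1). The search also covered CACGTG (E-box), ACGTG and CCGGAA (ETS). ACGTG is a form of the core of hypoxia response elements and also lies within the E-box. GCGTG, the other form of that core, was not searched. The longest stretch of each window outside annotated exons follows, 5′ to 3′ on the strand of the gene, with matches to the SREBP core and CCAAT on either strand in capitals.
Hmgcs1 (chr13:119690101-119690350, plus strand): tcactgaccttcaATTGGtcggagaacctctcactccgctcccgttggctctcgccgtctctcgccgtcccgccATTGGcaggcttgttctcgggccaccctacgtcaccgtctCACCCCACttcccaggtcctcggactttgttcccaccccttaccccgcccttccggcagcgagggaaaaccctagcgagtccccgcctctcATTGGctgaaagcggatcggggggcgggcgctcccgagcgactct
Mvd (chr8:122443423-122443672, minus strand): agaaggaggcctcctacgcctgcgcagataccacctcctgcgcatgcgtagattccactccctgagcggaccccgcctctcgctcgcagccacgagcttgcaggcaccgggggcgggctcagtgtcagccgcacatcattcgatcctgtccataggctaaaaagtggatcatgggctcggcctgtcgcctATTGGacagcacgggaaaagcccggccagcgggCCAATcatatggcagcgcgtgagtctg
Acat2 (chr17:12960748-12960975, minus strand): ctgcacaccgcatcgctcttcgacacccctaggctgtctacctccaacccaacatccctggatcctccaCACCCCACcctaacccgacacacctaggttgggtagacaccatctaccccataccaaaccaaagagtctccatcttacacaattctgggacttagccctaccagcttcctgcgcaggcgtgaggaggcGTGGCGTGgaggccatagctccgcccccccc
Mvk (chr5:114444061-114444268, plus strand): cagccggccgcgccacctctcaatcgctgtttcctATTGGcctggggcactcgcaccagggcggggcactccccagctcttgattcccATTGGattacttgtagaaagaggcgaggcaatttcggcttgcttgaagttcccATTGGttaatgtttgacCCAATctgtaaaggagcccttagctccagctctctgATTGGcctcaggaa
Ggps1 (chr13:14063490-14063603, minus strand): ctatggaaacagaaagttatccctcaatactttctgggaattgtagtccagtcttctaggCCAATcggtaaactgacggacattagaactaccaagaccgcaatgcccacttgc

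The SREBP core was found in 2 of 7 members, with 2 matches in Acat2 and 1 in Hmgcs1, against 5.29% of 32817 promoters of the same length. CCAAT was found in 6 of 7, all but Acat2, against 33.8% of all promoters. Mvk had 5 CCAAT matches and Hmgcs1 and Ggps1 had 3 each, and 2.79% of all promoters had 3 or more. The other 2 matches of Ggps1 lie where Arid4b, on the other strand, has an exon, which is not shown. Mvd and Idi1 had 2 each and Pmvk had 1. GGGCGG was found in 5 of 7, against 32.7% of all promoters, CCGGAA in 1 of 7, against 12%, and CACGTG and ACGTG in 0 of 7, against 6.02% and 16.6%. Whether these letters bear on the drug response of any member was not tested. A match is only a run of letters, and no match says nothing of binding outside this window.

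The later sterol steps lead on to cholesterol from the product of Fdps. Their list, like the others here, was drawn up with earlier results of these data known. Of 13 such genes, all tested, 7 were past the threshold as higher and 0 as lower with AZD8330 in Vhl cells, and 0 as higher and 11 as lower in control cells, beside 25.8% higher and 25.6% lower of all tested genes in Vhl cells and 29.1% higher and 31.7% lower in control cells. Not past the threshold in Vhl cells were, among others, Lbr at −0.90 ± 0.40 and Sqle at 0.02 ± 0.15, and in control cells Ebp at 0.46 ± 0.74. Lss, lanosterol synthase, had 285, 332 and 312 CPM in Vhl cells with AZD8330 against 214, 225 and 206 CPM in Vhl cells with DMSO, and 124, 131 and 139 CPM in control cells with AZD8330 against 243, 269 and 251 CPM in control cells with DMSO. Fdft1, squalene synthase, had log2 changes of 0.52 ± 0.05 in Vhl cells and −0.41 ± 0.05 in control cells, and Cyp51, the lanosterol demethylase, 0.34 ± 0.06 in Vhl cells and −0.72 ± 0.06 in control cells. The reductase Dhcr7, which acts late in the pathway, had −0.12 ± 0.07 in Vhl cells and −1.35 ± 0.07 in control cells. In DMSO, 6 of the 13 fell in Vhl cells relative to control cells and 0 rose, beside 18.5% and 13.8% of all tested genes, led by Fdft1 (log2 change −0.37 ± 0.05, edgeR adjusted p = 6.91e-05), Dhcr7 (−0.50 ± 0.07, 1.62e-04) and Cyp51 (−0.36 ± 0.06, 4.12e-04). In untreated cells edgeR called 0 of the 13, beside 0.0147% of 13569 tested genes called higher and 0% lower. At an unadjusted p under 0.05 there were 2, beside 1267 of all tested genes. DESeq2 called 1 as lower, beside 1.82% of all tested genes called higher and 0.804% lower. By limma 0 were called, beside 0.0295% higher and 0% lower. Without both A libraries 2 fell and 0 rose, beside 1.56% and 2.91% of all tested genes.

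Among the 5 genes that control SREBP, 3 fell and 1 rose in Vhl cells in DMSO, beside 18.5% and 13.8% of all tested genes. Srebf1 and Srebf2, which encode the SREBP factors, fell by 0.40 and 0.21 on the log2 scale (edgeR adjusted p = 7.43e-07 and 4.63e-04), and Scap, their escort protein, fell by 0.16 (edgeR adjusted p = 0.00448). Insig2, a protein that holds the escort back, rose by 0.99 ± 0.26 (edgeR adjusted p = 0.0108). Srebf2 had 692, 718 and 731 CPM in Vhl cells with AZD8330 against 815, 789 and 760 CPM in Vhl cells with DMSO, and 590, 606 and 622 CPM in control cells with AZD8330 against 896, 931 and 901 CPM in control cells with DMSO. Its mRNA was thus lower with the drug in both genotypes, with a log2 change of −0.14 ± 0.03 in Vhl cells and −0.59 ± 0.03 in control cells. Hmgcs1, Mvd and Idi1 were higher with the drug in Vhl cells, as given above. Insig1, itself a known SREBP target, had 7.09, 7.61 and 7.91 CPM in Vhl cells with AZD8330 against 5.43, 3.80 and 3.55 CPM in Vhl cells with DMSO, and 2.54, 2.54 and 3.72 CPM in control cells with AZD8330 against 5.72, 6.54 and 7.00 CPM in control cells with DMSO. The Vhl libraries with the drug were the highest, and the control libraries with the drug met those of Vhl cells with DMSO at the low end. With AZD8330, 1 of the 5 was past the threshold as higher and 2 as lower in Vhl cells (25.8% and 25.6% of all tested genes), and 1 as higher and 3 as lower in control cells (29.1% and 31.7%). Set against control cells under AZD8330, Vhl cells had 3 of the 5 past the threshold as higher (Srebf2, Insig1 and Insig2) and Srebf1 as lower, beside 16.0% and 14.0% of all tested genes. In untreated cells 0 of the 5 were called by edgeR, DESeq2 or limma. Of all tested genes these methods called 0.0147%, 1.82% and 0.0295% higher and 0%, 0.804% and 0% lower. At an unadjusted p under 0.05 by edgeR were 0 of the 5, beside 1267 of 13569 tested genes. Without both A libraries the count called was also 0, beside 2.91% of all tested genes called higher and 1.56% lower.

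Genes that use isoprenoids for prenyl groups, dolichol or ubiquinone were the next list, and 13 of its 14 genes were tested. With AZD8330 1 was past the threshold as higher and 6 as lower in Vhl cells, beside 25.8% and 25.6% of all tested genes. In control cells 0 were past it as higher and 7 as lower, beside 29.1% and 31.7% of all tested genes. Coq2, which attaches the prenyl tail in ubiquinone synthesis, had 44.9, 44.2 and 45.8 CPM in Vhl cells with AZD8330 against 73.7, 67.3 and 69.5 CPM in Vhl cells with DMSO, and 41.0, 41.3 and 41.0 CPM in control cells with AZD8330 against 79.7, 76.7 and 74.3 CPM in control cells with DMSO. The drug libraries were well below the DMSO libraries in both genotypes. Fntb, the beta subunit of protein farnesyltransferase, had a log2 change of −0.21 ± 0.05 in Vhl cells and −0.74 ± 0.05 in control cells. In DMSO, where 13.8% of all tested genes rose and 18.5% fell, 1 of the 13 rose in Vhl cells (Fntb, log2 change 0.15 ± 0.05, edgeR adjusted p = 0.0261) and 4 fell, led by Zmpste24, a protease of prenylated proteins (−0.33 ± 0.06, 9.67e-04). That total of 5 went down to 2 without control DMSO B and to 3 without control DMSO A, Vhl DMSO B or Vhl DMSO C. Under AZD8330 2 of the 13 were past the threshold as higher in Vhl cells and 2 as lower, beside 16.0% and 14.0% of all tested genes. In untreated cells edgeR, DESeq2 and limma called 0. Of all tested genes these methods called 0.0147%, 1.82% and 0.0295% higher and 0%, 0.804% and 0% lower. By edgeR 1 was at an unadjusted p under 0.05, beside 1267 of 13569 tested genes. Without both A libraries edgeR called 0, beside 2.91% of all tested genes called higher and 1.56% lower.

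Of the paralogs of Acat2, Acat3 is described above. Acat1, the mitochondrial thiolase, had log2 changes of −0.47 ± 0.05 in Vhl cells and −0.60 ± 0.05 in control cells with AZD8330, and it fell by 0.17 in Vhl cells in DMSO (edgeR adjusted p = 0.0109). With all libraries, Acat3 was not called in DMSO or untreated cells, nor was Acat1 in untreated cells. Idi2, the paralog of Idi1, was not tested.

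Across the 12 libraries of the drug experiment the enzymes tracked one another unequally. The Pearson correlation of each gene's log2(CPM + 1) with the mean of the other 7 was 0.90 for Mvd, 0.90 for Fdps, 0.86 for Hmgcs1, 0.85 for Idi1, 0.67 for Acat2, 0.49 for Pmvk, 0.42 for Mvk and 0.08 for Ggps1. The 12 libraries form 4 groups, so these values describe the group pattern and carry no p. Among 8602 other genes that averaged 10 CPM or more, those most like the mean of the members were Slc1a5 (0.94), Id1 (0.94), Lss (0.92), Fdft1 (0.91), Tkt (0.90), Podxl (0.88), Cyp51 (0.88) and Josd2 (0.87). Slc1a5, a glutamine transporter, averaged 16.9 CPM in Vhl cells with AZD8330 and 8.39 CPM in Vhl cells with DMSO, and 6.55 CPM in control cells with AZD8330 and 13.3 CPM in control cells with DMSO. Id1, an inhibitor of helix-loop-helix factors, averaged 19.3 CPM in Vhl cells with AZD8330 and 12.3 CPM in Vhl cells with DMSO, and 11.2 CPM in control cells with AZD8330 and 14.5 CPM in control cells with DMSO. In the 6 untreated libraries the same correlation was 0.83 for Lss, 0.72 for Cyp51, 0.69 for Fdft1 and 0.68 for Slc1a5, but −0.04 for Id1 and −0.69 for Tkt.

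The 8 genes lie on 5 chromosomes of GRCm38 by GENCODE M21. Hmgcs1 (ENSMUSG00000093930.2) spans 119690379 to 119708260 on the plus strand of chromosome 13, Idi1 (ENSMUSG00000058258.14) 8885501 to 8892451 on the plus strand and Ggps1 (ENSMUSG00000021302.10) 14050659 to 14063488 on the minus strand of chromosome 13. Pmvk (ENSMUSG00000027952.16) spans 89454541 to 89469013 on the plus strand and Fdps (ENSMUSG00000059743.12) 89093588 to 89101959 on the minus strand of chromosome 3. Acat2 (ENSMUSG00000023832.14) spans 12942890 to 12960747 on the minus strand of chromosome 17, Mvk (ENSMUSG00000041939.14) 114444269 to 114460591 on the plus strand of chromosome 5 and Mvd (ENSMUSG00000006517.5) 122433601 to 122443422 on the minus strand of chromosome 8. Besides Acat2, Fdps and Idi1 share 27.9% and 27.1% of their 31-base words with other gene models, Ggps1 14.9%, Hmgcs1 13.1%, mainly with the antisense model Gm48342, Mvk 2.18%, and Pmvk and Mvd 0%. Whether the counting used strand is not given, so reads of Hmgcs1 and Gm48342 cannot be told apart; Gm48342 averaged 1.03 to 2.12 CPM in the groups of the drug experiment. Mvk lies 209 bases from the start of Mmab, which runs on the other strand and averaged 1.69 CPM in Vhl cells with AZD8330 against 1.69 CPM in Vhl cells with DMSO, and 1.12 CPM in control cells with AZD8330 against 3.43 CPM in control cells with DMSO. Ggps1 overlaps Arid4b, which averaged 105 CPM in Vhl cells with AZD8330 against 94 CPM in Vhl cells with DMSO, and 111 CPM in control cells with AZD8330 against 80.8 CPM in control cells with DMSO. The model Gm20388 covers Mvd on the other strand. It averaged 7.94 CPM in control cells with DMSO and 0 in the other 3 groups of the drug experiment. Mvd shares 0% of its 31-base words with other gene models, as given above. Whether counts of Gm20388 bear on the Mvd value of that group was not tested.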

How the data were processed

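RNA-seq of 18 mouse OPC libraries was quantified by the authors with Salmon 0.14.1 on build mm10, per the submitters' processing notes. The annotation, library strandedness and the way transcripts were combined into genes are not given in any source used here. Although the deposited tables are called TPM, they hold estimated counts: library totals differ, and with a tolerance of 0.001, whole numbers make up 57.73% of untreated and 58.79% of drug values. The estimated counts were rounded and tested with edgeR 4.0.16 (R 4.3.3) by its quasi-likelihood test, with TMM scaling, a filter of a mean of at least 1 CPM and Benjamini-Hochberg adjustment over all genes of a table, at a threshold of 0.05. All 4 drug-experiment groups entered a single fit, and the untreated groups another. CPM were computed from the same scaled library sizes. The tests were tested on simulated data. Alternatives were total-count scaling, DESeq2 1.42.0, limma 3.58.1 on log2(CPM + 1) and log2(CPM + 0.1), no filter, each library left out, both untreated A libraries left out, the replicate letter as a block, and fits of 2 groups.

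The members and all gene lists were chosen with earlier results of these data known. Contrasts that include AZD8330 libraries are described for that reason, and nothing is read from their calls past the threshold. The DMSO comparison shares libraries with those contrasts, and its adjusted p does not allow for the choice of genes. Named genes were the 8 members, of each list up to 3 genes with the smallest p past the threshold per contrast, the 8 genes most correlated with the members, and Vhl, Vegfa, Dusp6 and Sox10 as checks of the labels. Further genes of the lists are named for their role, and were chosen after their values were seen. Gene models came from GENCODE M21 and promoter sequences from RefSeq on GRCm38.p6. Values of some genes in the lists are not reported here. No 2 libraries held identical values. Precision is limited by counting error at low levels, as for Pmvk, which had 8.29 to 125 estimated counts in a library of the drug experiment. Figures were drawn with matplotlib 3.10.9 in Python 3.11.15.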

Additional observations from a re-analysis of the deposited data

Results flagged for a closer look

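The AZD8330 change differed in direction between genotypes for Hmgcs1, Mvd and Idi1, with every drug library on the far side of every DMSO library in opposite directions. The change in Vhl cells minus that in control cells was 1.08 for Hmgcs1, 1.42 for Mvd and 1.59 for Idi1 on the log2 scale. These genes were chosen by these contrasts, so the difference was not tested here. The share of all tested genes with such a pattern was not counted.

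Hmgcs1 was also lower in all untreated Vhl libraries than in all untreated control libraries, by a log2 change of −0.75, whereas under AZD8330 it was higher in all Vhl libraries, by 0.86. The 2 experiments were quantified in separate tables and the difference between them was not tested.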

How the results depend on the processing

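Of 408 values of single members in the Vhl comparisons under the alternatives, 19 lost a call, 4 gained one and 23 changed sign. Of 432 values of the AZD8330 changes and their difference, 15 changed sign, for Acat2, Mvk, Pmvk or Ggps1, 3 were no longer past the threshold, for Pmvk or Mvk, and 4 moved by more than the replicate spread. Without both A libraries the number of members called in untreated cells was 4 instead of 0. Leaving out 1 library gave 0 called members in untreated cells, 3 to 4 in DMSO and 5 to 7 in AZD8330. It gave medians of the AZD8330 change of 0.478 to 0.578 in Vhl cells and −0.462 to −0.276 in control cells, and of their difference of 0.953 to 1.116, against 1.119 with all libraries. The lowest difference was that without Vhl AZD8330 B. In untreated cells the Acat2 change of −0.06 became 0.0754 and 0.0861 with limma at pseudocounts of 1 and 0.1 and 0.0744 with the replicate block. Leaving out 1 library moved it between −0.42 and 0.37, that of Mvk between −0.39 and 0.0945 and that of Pmvk between −0.45 and 0.46. In DMSO the Acat2 change became 0.0277 with total-count scaling and 0.0020 in the fit of 2 groups, and lay between −0.13 and 0.0875 with 1 library left out, that of Ggps1 between −0.0415 and 0.12. In AZD8330 the Ggps1 change was −0.0169 with DESeq2 and between −0.0480 and 0.0259 with 1 library left out. The cause of these changes was not tested.

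Over all genes, untreated Vhl cells had 2 genes called higher and 0 lower by edgeR, 246 and 109 by DESeq2, 4 and 0 by limma, 112 and 31 without the filter, 308 and 131 without Vhl A, and 395 and 211 without both A libraries. Libraries of the same letter were compared over all tested genes. Libraries of different letters were not compared, so the values cannot show that pairing was absent. Same-letter deviations correlated between −0.081 and 0.020 over 3 pairs in the untreated experiment. In the drug experiment the correlations lay between −0.044 and 0.053 over 18 pairs. These values do not show whether single genes shared a letter effect. Sox10 was higher in A than in B and C in both untreated genotypes, as given above. With the letter as a replicate block 0 members were called in untreated cells, 4 in DMSO and 7 in AZD8330, the medians were 0.543 in Vhl cells and −0.375 in control cells with a difference of 1.094, and in untreated cells 0 genes were called in all.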

Other observations

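The authors' deposited table of untreated cells also holds a mean column for each genotype. In the authors' deposited table the control column equalled the mean of the 3 control libraries in all 54279 rows, within 0.01. The VHL column of the authors' deposited table equalled the mean of control B, control C and Vhl A in all 54279 rows, and that of the 3 Vhl libraries in 2543 of the 28772 rows above 0. For Hmgcs1 the ratio of VHL to control is 1.014 in the authors' deposited table and 0.648 from the library columns. For Mvd these ratios are 1.128 in the authors' deposited table and 0.729 from the library columns, and for Idi1 1.218 in the authors' deposited table and 0.827 from the library columns. The mean columns were not used for any other value here.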
